A study of Mus musculus with 16 samples.

Results

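Cytosolic ribosomal protein genes were followed in T cells of OT-I mice from lymph node (LN) and visceral fat (VAT), on standard chow (lean) or a high-fat diet (HFD). The members are all 94 gene rows, of 54456 in the count table, whose symbol begins with Rpl or Rps and a digit, or is Rplp0, Rplp1, Rplp2 or Rpsa. Hyphenated pseudogene symbols and the Rps6k kinases were left out. The genes were chosen by name, not by their values. They hold 77 core ribosomal proteins (46 of the 60S subunit, among them 3 of its stalk, and 31 of the 40S subunit), 7 paralogs expressed in place of or beside a core gene, 8 near-identical copies and 2 genes, Rps19bp1 and Rps23rg1, that encode no ribosomal protein.

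There were 4 groups of 4 libraries: HFD LN, HFD VAT, lean LN and lean VAT. All mice carried the OT-I transgenes, which encode a T cell receptor for an ovalbumin peptide on MHC class I, so most of their T cells are CD8 cells of 1 specificity, and no group lacks the transgene. The diets lasted 8 weeks, and 60% of the calories of the HFD came from fat. The labels do not give the age or sex of the mice, whether animals were pooled, or how libraries pair. One field calls the cells freshly isolated while another has them kept in culture overnight ahead of sorting, the growth protocol describes human synovial fibroblasts, and the fields name 2 library kits with different sequencers, so culture and chemistry are not known with certainty. The count table further tags every library Neg-OVA without explanation. P-values measure the spread between these libraries. The titles number them as biological replicates, without saying whether each came from a separate mouse.

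A ribosome is built from ribosomal RNA and about one copy of each ribosomal protein, with the 40S subunit reading the messenger and the 60S subunit joining the amino acids. Most messengers for ribosomal proteins begin with a run of pyrimidines at the cap, the terminal oligopyrimidine (TOP) motif, through which mTORC1 and LARP1 set how much of them is translated and stored. Resting lymphocytes hold few ribosomes and enlarge the pool when they are activated.

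Promoters are shown for 8 members, because the start of the transcript is what these genes are known to share and because the values below separate several of them. Of the 94 members, 69 have a promoter entry in RefSeq (GRCm38.p6), and 57 of the 77 core genes do. The lines give 60 bases, from 45 before the annotated start to 15 from it, 5′ to 3′ on the gene's strand. Capitals mark the longest run of at least 6 C or T letters that touches the 10 bases on either side of the start. Rps6, Rps18, Rpl14, Rpl4 and Rps7 fell in VAT in at least 1 diet, Rps27 and Rps27l are a parent and its paralog, and Rplp0 varied little.
Rps6 (chr4:86857353-86857412, minus strand): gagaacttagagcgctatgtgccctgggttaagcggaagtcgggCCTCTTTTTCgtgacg
Rps18 (chr17:33955651-33955710, minus strand): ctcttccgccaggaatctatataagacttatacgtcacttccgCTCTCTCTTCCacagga
Rpl14 (chr9:120571472-120571531, plus strand): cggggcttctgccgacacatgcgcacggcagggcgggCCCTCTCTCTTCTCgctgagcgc
Rpl4 (chr9:64173342-64173401, plus strand): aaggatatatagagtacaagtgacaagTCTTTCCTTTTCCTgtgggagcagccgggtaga
Rps27 (chr3:90213634-90213693, minus strand): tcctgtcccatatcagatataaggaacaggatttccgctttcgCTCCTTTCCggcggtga
Rps27l (chr9:66946041-66946100, plus strand): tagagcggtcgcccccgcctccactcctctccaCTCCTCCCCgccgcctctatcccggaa
Rps7 (chr12:28635939-28635998, minus strand): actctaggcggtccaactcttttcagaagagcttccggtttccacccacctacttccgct
Rplp0 (chr5:115559422-115559481, plus strand): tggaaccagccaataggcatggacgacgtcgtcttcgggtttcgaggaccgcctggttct

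The run begins 1 base before the annotated start in Rps6 and is 10 letters long. In Rps18 it has 11 letters and in Rpl14 it has 14. Rps7 and Rplp0 hold no such run in this window. Of the 57 core genes, 61.4% hold a run, against 32.7% of the 27025 genes in the promoter table. The letters CCGGAAG, searched on both strands over 300 bases (250 before the start and 50 from it), were in 42.1% of core promoters and 9.93% of all promoters. GGGCGG was in 61.4% against 38.2%, AAGATGG in 15.8% against 7.28%, and TATAAA in 10.5% against 15.7%. A match is a description of letters, and annotated starts can be off by some bases.

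Totals were 40212388 to 65957407 counts per library. Levels below are CPM, counts scaled to a common library size with TMM factors, given as mean ± SD over libraries, and folds are between means fitted by edgeR. Rps12l1 had no count in any library, and Rpl3l, Rpl10l and Rps23rg1 stayed below the filter on low counts with 7, 30 and 101 counts over all libraries. The other 90 members were tested among 15675 genes. A gene was called at an adjusted p of at most 0.05 (edgeR quasi-likelihood fit, Benjamini-Hochberg over every tested gene), and "passed" below refers to this test unless another tool is named. In all, 321 pseudogene rows carry the names of 64 members, and their counts were 5.38% to 7.47% of the counts of members and pseudogenes together, so reads of a member may have been assigned to a copy.

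One library stood apart for these genes. Lean VAT replicate 1 had the highest value of its group for 84 of 90 members. It also had the largest share of missing genes, defined as genes with a median from 10 CPM up in their 3 companion libraries and no more than 3 counts here, at 13.3%. HFD VAT replicates 1 and 3 followed with 11.4% and 11.5%, and the other 13 libraries had 0.818% to 5.45%. HFD VAT replicate 3 was highest of its group for 69 members and lean LN replicate 2 for 85. Results that rest on lean VAT replicate 1 are therefore given with and without it, and the part of its missing share in its values was not tested. Lean LN replicate 2 was left out only for counts of members and for the range of the summed level. The 2 omissions moved the lean tissue difference in opposite directions. The members' median log2 fold change of lean VAT over lean LN, -0.43, was -0.83 without lean VAT replicate 1. It was -0.23 without lean LN replicate 2.

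T-cell marker genes summed to 13974 to 18704 CPM in all 16 libraries, and Cd3d, Cd3e and Cd8a were present in each. Of the 14 T-cell marker genes tested, 1 rose and 2 fell in VAT on HFD, and 1 rose and 3 fell in lean mice. The one that rose was Cd8a, 3.12-fold on HFD (adjusted p = 1.68e-05) and 2.56-fold in lean mice (adjusted p = 9.1e-05). B and plasma cell markers summed to 1763 to 4154 CPM in LN and 113 to 406 CPM in VAT, and of the 16 such genes tested (18 listed) 11 fell in VAT on HFD and 8 in lean mice. Macrophage and monocyte markers summed to 176 to 423 CPM in LN and 1113 to 2102 CPM in VAT, mostly from Ly6c2, while Adgre1, Cd14, C1qa and Itgam were at most 0.0268 CPM in every library. Natural killer and innate lymphoid markers summed to 66.7 to 237 CPM in LN and 665 to 998 CPM in VAT, with Ncr1 at 0 in all but lean VAT (at most 0.801 CPM). The part of these cells in the differences below was not tested.

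The members together made up less of the RNA in VAT than in LN on HFD. Their summed level was 32335, 44719, 42039 and 36585 CPM in HFD LN and 20628, 19905, 31473 and 22159.8 CPM in HFD VAT. All 4 VAT libraries lay below all 4 LN libraries, and the means, 38919 ± 5543 and 23541 ± 5371 CPM (SD, n = 4 each), were 1.65-fold apart. In lean mice the sum was 33772, 50347, 30563 and 31348 CPM in LN and 42345, 18399, 20167 and 18577 CPM in VAT. Lean VAT replicate 1 lay above 3 of the 4 LN libraries and the other 3 VAT libraries lay below all of LN. The lean means were 36507 ± 9327 and 24872 ± 11676 CPM, 1.47-fold apart, and 1.92-fold apart without that library (19048 ± 973 CPM, n = 3). Leaving out 1 library at a time moved the lean log2 ratio of VAT to LN from -0.55 to values between -0.94 and -0.36. In these bulk samples, fewer cells that express a gene and less of its RNA per cell cannot be told apart.

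**Figure D1:**
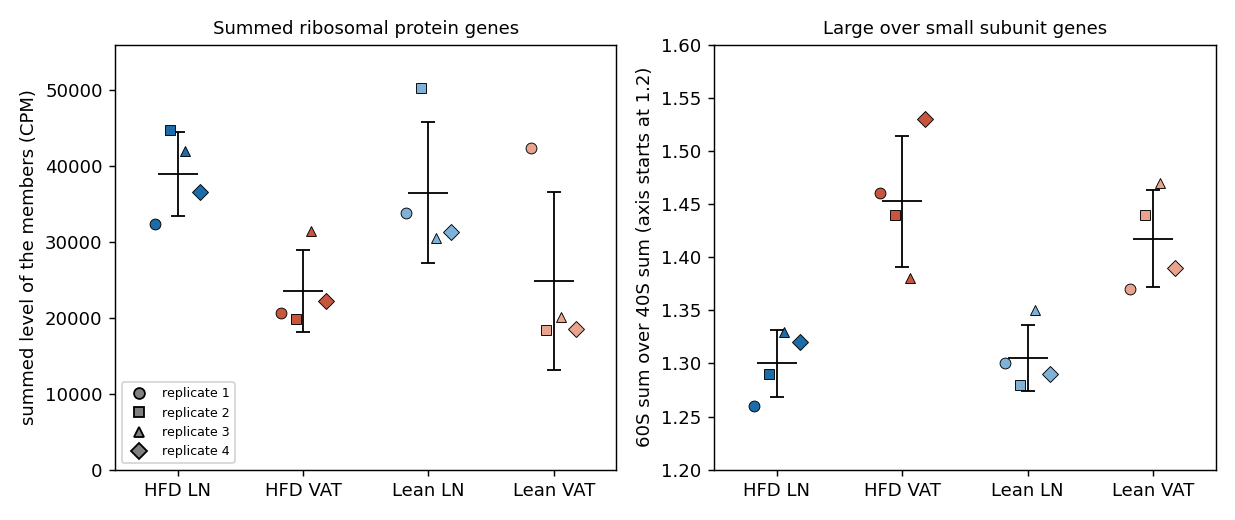
Left, summed CPM of the 94 ribosomal protein genes in each library, and right, the sum of the 60S genes divided by that of the 40S genes, on an axis that starts at 1.2. Symbols mark the replicate number, horizontal bars the mean and whiskers the SD (n = 4). On the left the HFD VAT libraries lie below the HFD LN libraries while lean VAT replicate 1, at 42345 CPM, lies among those of LN. On the right the 8 VAT libraries (1.37 to 1.53) lie above the 8 LN libraries (1.26 to 1.35).

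Gene by gene, most members were lower in VAT, and a few passed the test. On HFD 7 of 90 members fell and 0 rose (7.78%), where 4.56% of all genes tested were called and 1.88% fell. In lean mice 4 members fell and 0 rose (4.44%), where 3.04% of all genes were called and 0.919% fell. The log2 fold change was below 0 for 84 members on HFD, with a median of -0.69 against -0.10 for all genes. In lean mice it was below 0 for 75 members, with a median of -0.43 against 0.00. Without lean LN replicate 2 it was below 0 for 65 members in lean mice (49.0% of all genes), with a median of -0.23 against 0.02. In that fit 3 members passed (2.27% of all genes). Over the other scalings tried (RLE, upper quartile, library totals and TMM without the members) 84 to 86 members were lower on HFD and 72 to 80 in lean mice.

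The libraries of VAT and LN did not overlap for 32 members on HFD, all lower in VAT (8.01% of all genes did so). In lean mice 6 members were lower without overlap (5.7% of all genes) and 1, Rpl39l, higher (7.24% of all genes), and 67 were lower without overlap once lean VAT replicate 1 was left out (9.86% of all genes). Without that library 20 members fell on HFD (2.4% of all genes fell) and 25 fell in lean mice (1.01% of all genes fell). Of these, 18 fell in both diets, 90% of the HFD calls and 72% of the lean calls. The matching share over all called genes is not given, so these percentages have no baseline. The 2 tissue comparisons share no library, but both were read from 1 fit with a shared estimate of the spread. With all 16 libraries 2 members passed in both diets. With only the groups compared in each fit 1 did, Rps6.

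The number of members called moved with the tool as well. DESeq2 called 26 members on HFD (16.4% of all genes) and 17 in lean mice (10.0% of all genes). The limma voom fit with quality weights called 10 on HFD (6.44% of all genes) and 41 in lean mice (8.76% of all genes). With only the groups compared in the fit, edgeR called 16 on HFD (5.31% of all genes) and 3 in lean mice (2.98% of all genes). When lean VAT replicate 1 and HFD VAT replicates 1 and 3 were all left out, 24 fell on HFD (1.75% of all genes) and 39 in lean mice (1.38% of all genes). Rps6 passed in both diets in all 28 alternatives run, as did Rpl4 in lean mice.

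**Figure D2:**
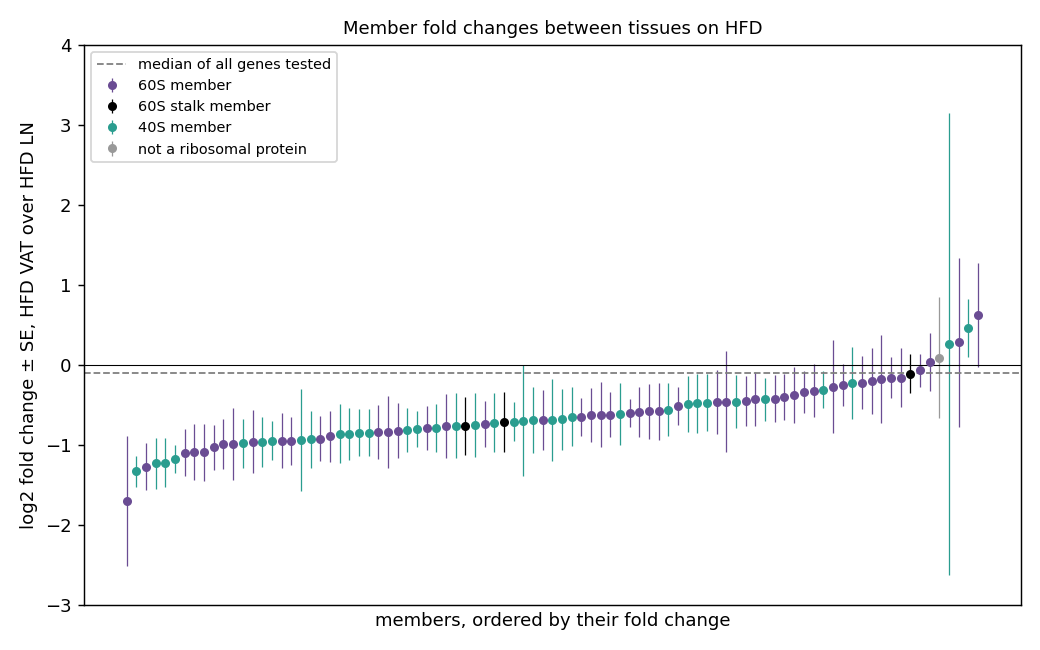
Fitted log2 fold change (HFD VAT over HFD LN, whiskers ± SE) of 89 tested ribosomal protein genes, ordered by size and coloured by subunit. The dashed line is the median of all genes tested (-0.10). Rpl39l, counted in few libraries, is not drawn. The points lie below 0 but for 6 at the right end, Rps27l and Rpl36al among them.

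Of the small subunit, 5 of 31 core genes fell in VAT on HFD (1.88% of all genes fell) and 2 in lean mice (0.919%). All 31 were lower on HFD (53.5% of all genes were) and 30 in lean mice (50.2%). Rps6 is the subunit's substrate of the S6 kinases, which act below mTORC1. It was at 573, 762, 640.2 and 645 CPM in HFD LN and at 319, 295, 261 and 286 CPM in HFD VAT. In lean mice it was at 591, 963, 535 and 541 CPM in LN and at 278, 274, 297 and 302 CPM in VAT. No VAT library reached any LN library, and lean VAT replicate 1 did not stand apart for this gene. Rps6 was 2.26-fold lower on HFD (log2 fold change -1.18, SE 0.176, adjusted p = 0.000938) and 2.29-fold lower in lean mice (-1.19, SE 0.176, adjusted p = 0.0011).

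Rps19, the gene most often mutated in Diamond-Blackfan anaemia, was at 1085, 1494, 1560.3 and 1274 CPM in HFD LN. It was at 578, 469, 759 and 506 CPM in HFD VAT. The groups did not overlap, and the fall was 2.34-fold (adjusted p = 0.0419), a call lost in 15 of 28 alternatives (largest adjusted p = 0.109). In lean VAT replicate 1 was at 1032 CPM and the other libraries at 385, 422 and 402 CPM, against 1163, 1893, 1067 and 1007 CPM in lean LN. Only replicate 1 reached the LN range. The lean difference was 2.29-fold (adjusted p = 0.0615), and 3.19-fold with adjusted p = 0.00133 without that library.

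Rps18, a protein of the head of the small subunit, fell from 1006 ± 164 to 431 ± 133 CPM on HFD (adjusted p = 0.033). Rps7, which can also bind Mdm2, the ligase of p53, fell from 742 ± 102 to 385 ± 71.9 CPM (adjusted p = 0.0402). For both, the 4 VAT libraries lay below the 4 LN libraries. The HFD call was lost in 9 of 28 alternatives for Rps18 (largest adjusted p = 0.0948) and in 14 of 28 for Rps7 (largest adjusted p = 0.112). In lean mice Rps18 was at 876 ± 312 CPM in LN and 449 ± 189 CPM in VAT (adjusted p = 0.126), and Rps7 at 617 ± 167 and 346 ± 122 CPM (adjusted p = 0.0943). Without lean VAT replicate 1 both passed in lean mice, with adjusted p = 0.0191 for Rps18 and 0.0146 for Rps7.

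The other small subunit genes of the named panel did not pass. Rpsa, also known as the laminin receptor precursor, was at 579 ± 126 CPM in HFD LN and 329 ± 63.4 CPM in HFD VAT (adjusted p = 0.123). Rps14, the gene of the 5q- syndrome, was at 881 ± 109.9 and 509 ± 63.2 CPM (adjusted p = 0.169). Both had groups that did not overlap on HFD, and both passed in each diet without lean VAT replicate 1. Rps3, which lines the entry of the messenger channel, was at 849.5 ± 113 and 576 ± 160.3 CPM (adjusted p = 0.419), with overlap. Rps4x was at 358 ± 52.4 and 212 ± 71.9 CPM (adjusted p = 0.359), and Rps27a, which is made as a fusion with ubiquitin, at 298 ± 29.5 and 216 ± 55.9 CPM (adjusted p = 0.56). In lean VAT replicate 1 Rps4x reached 618 CPM and Rps3 reached 1215 CPM, above every LN library. Rps13 varied least among the small subunit genes, with a coefficient of variation of 22.7% over the 16 libraries, and was at 322 ± 75 and 259.5 ± 72.7 CPM on HFD (adjusted p = 0.576).

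**Figure D3:**
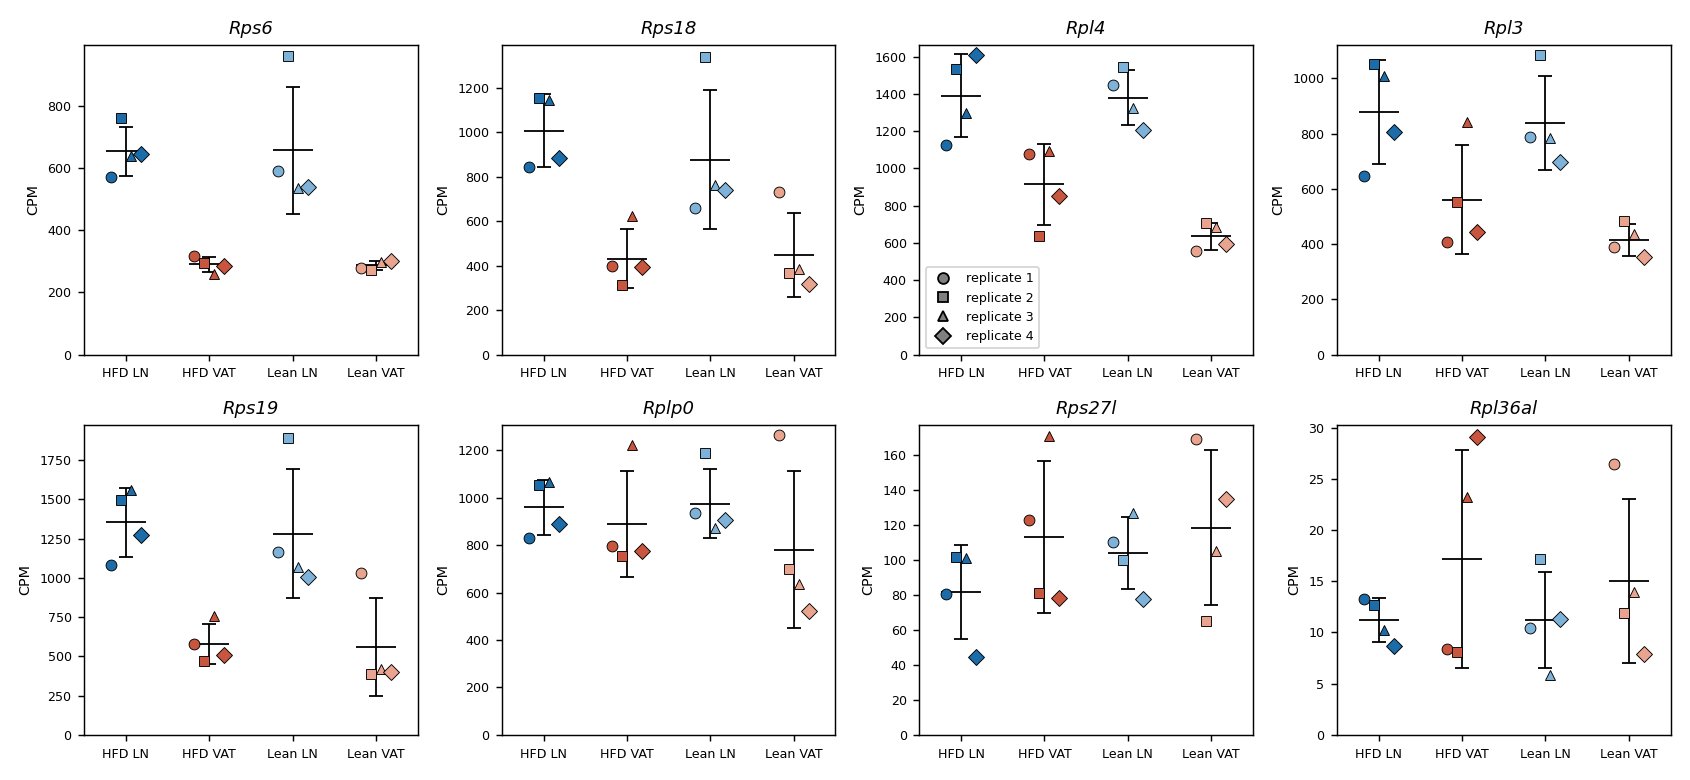
CPM of 8 ribosomal protein genes in each library, each panel with its own axis from 0. Symbols mark the replicate number, horizontal bars the mean and whiskers the SD (n = 4). Rps6 and Rpl4 have every VAT library below every LN library, Rps18 and Rps19 have lean VAT replicate 1 among the LN libraries, and Rplp0, Rps27l and Rpl36al overlap between tissues.

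Of the large subunit, 2 of 46 core genes fell in VAT on HFD (1.88% of all genes fell) and 2 others in lean mice (0.919%). On HFD 45 were lower (53.5% of all genes were) and in lean mice 39 (50.2%). Rpl4, whose extension lines the tunnel through which the new peptide leaves, was at 1126, 1534, 1297 and 1607 CPM in HFD LN. It was at 1079, 636, 1094 and 850.1 CPM in HFD VAT. In lean mice it was at 1447, 1543, 1322 and 1205 CPM in LN and at 555, 708, 683 and 593 CPM in VAT. The tissues did not overlap in either diet, and lean VAT replicate 1 was the lowest of its group. The lean difference was 2.17-fold (log2 fold change -1.12, SE 0.172, adjusted p = 0.00155), and that on HFD 1.52-fold (-0.60, SE 0.171, adjusted p = 0.0632).

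Rpl3, which reaches towards the peptidyl transferase centre, was at 786, 1085, 782 and 698 CPM in lean LN and at 388, 482, 438 and 352 CPM in lean VAT. The groups did not overlap, and the fall was 2.02-fold (adjusted p = 0.0283). Without lean VAT replicate 1 it was 1.98-fold (adjusted p = 0.0698), 1 of 6 alternatives of 28 that lost the call. On HFD it was at 648, 1053, 1007 and 806 CPM in LN and at 407, 554, 841 and 443 CPM in VAT, where replicate 3 reached the LN range (adjusted p = 0.144).

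Rpl14 was at 546, 674, 739 and 654 CPM in HFD LN and at 237, 194, 283 and 367 CPM in HFD VAT. With no overlap, the fall was 2.42-fold (adjusted p = 0.0247, lost in 8 of 28 alternatives), and in lean mice the means were 608 ± 201 and 386 ± 167 CPM (adjusted p = 0.335). Rpl13 had the highest mean CPM of all members in HFD LN, which is not a level per length. It was at 1652, 2329.7, 2344 and 1727 CPM there and at 649, 777, 1497 and 834 CPM in HFD VAT. The fall of Rpl13 was 2.14-fold (adjusted p = 0.0485), the weakest of the HFD calls, and 20 of 28 alternatives lost it. In lean mice its groups did not overlap either, at 1953 ± 549.5 and 969.9 ± 353 CPM (adjusted p = 0.094).

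Rpl5 and Rpl11 join 5S ribosomal RNA in a particle that can bind Mdm2 when ribosome assembly fails. Rpl5 was at 277 ± 25.6 CPM in HFD LN and 147 ± 31.3 CPM in HFD VAT, with no overlap (adjusted p = 0.0872). It passed in both diets without lean VAT replicate 1, with adjusted p = 0.00468 on HFD and 0.0321 in lean mice. Rpl11 was at 296 ± 64.7 and 208 ± 33.6 CPM on HFD, with overlap (adjusted p = 0.262). Rpl22, which developing T cells need, was at 105 ± 14.2 and 49.4 ± 20.7 CPM on HFD, with no overlap (adjusted p = 0.109), and at 91.6 ± 17.1 and 67.3 ± 24.2 CPM in lean mice (adjusted p = 0.762). Rpl10, which joins the subunit late in its maturation, was at 234 ± 54.4 and 185 ± 42.8 CPM on HFD (adjusted p = 0.604) and at 233 ± 18.3 and 243 ± 105 CPM in lean mice (adjusted p = 0.998). Without lean VAT replicate 1, at 401 CPM, the lean VAT mean of Rpl10 was 190.2 ± 2.3 CPM, below all of lean LN (1.23-fold, adjusted p = 0.64).

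Rpl17 was at 333 ± 50 and 217 ± 83.3 CPM on HFD (adjusted p = 0.258) and Rpl39 at 182 ± 25.3 and 107 ± 37.3 CPM (adjusted p = 0.339). Rpl38, which mouse embryos need to translate a set of Hox messengers, was at 214 ± 36.4 and 171 ± 49.2 CPM (adjusted p = 0.741). Rpl13a had 5927 counts over all libraries, the third lowest mean CPM in HFD LN among core genes, and was at 10.7 ± 5.38 and 3.3 ± 2.1 CPM (adjusted p = 0.284). None of these 4 passed in either diet, and each overlapped between tissues on HFD.

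The stalk is the arm of the large subunit that recruits translation factors, with Rplp0 at its base and pairs of Rplp1 and Rplp2 along it. Rplp0 was at 830.1, 1052, 1064 and 890 CPM in HFD LN and at 798, 756, 1221 and 776 CPM in HFD VAT. It was among the 3 least variable members, with a coefficient of variation of 23.6%, and its tissues overlapped on HFD (adjusted p = 0.91) and in lean mice (adjusted p = 0.735). The lean overlap came from lean VAT replicate 1 at 1266 CPM, since the other 3 were at 698, 635 and 523 CPM and lean LN at 872 to 1188 CPM. Without that library Rplp0 was 1.58-fold lower in lean VAT (adjusted p = 0.0901), and limma voom called it with all libraries. Rplp1 was at 469 ± 48.4 and 286 ± 42 CPM on HFD, with no overlap (adjusted p = 0.338), and Rplp2 at 354 ± 77.3 and 209 ± 91.6 CPM (adjusted p = 0.282). Lean VAT replicate 1 held 874 CPM of Rplp1 against 228 to 269 CPM in the other 3, and without it Rplp1 passed on HFD (adjusted p = 0.0412) and in lean mice (adjusted p = 0.0394).

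The sums of the 2 subunits were then set against each other. Whether the members differed by 1 common factor was not tested. The sum of the 60S genes divided by that of the 40S genes was 1.26, 1.29, 1.33 and 1.32 in HFD LN and 1.46, 1.44, 1.38 and 1.53 in HFD VAT. In lean mice it was 1.30, 1.28, 1.35 and 1.29 in LN and 1.37, 1.44, 1.47 and 1.39 in VAT. All 8 VAT libraries lay above all 8 LN libraries, lean VAT replicate 1 with them. The same held without the 10 highest core genes (1.03 to 1.09 in LN, 1.15 to 1.37 in VAT) and with pseudogene counts added (1.24 to 1.33 and 1.35 to 1.51). With geometric means in place of sums the tissues touched, at 0.716 to 0.777 in LN and 0.775 to 0.883 in VAT. These are ratios of CPM, not of molecules, and as scores over the members they carry no test.

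Relative to the summed core genes, some members had 8 VAT libraries that did not overlap with the 8 LN libraries. Of 90 members 2 were lower in this way, Rps19 among them (2.22%, against 0.561% of all genes). The 2 that were higher were Rpl27 and Rpl7 (2.22%, a smaller share than the 6.45% of all genes). In CPM, Rpl7 was the least variable of the members, at 500.2 ± 64.6 CPM in HFD LN, 478 ± 86.2 in HFD VAT, 514 ± 92.2 in lean LN and 437 ± 143 in lean VAT, with overlap in both diets. In lean mice the overlap came from VAT replicate 1 (648 CPM), and the other 3 libraries, at 367 ± 31.4 CPM, lay below all of lean LN (1.41-fold, adjusted p = 0.198 without replicate 1). Rpl27 was at 312 ± 46.4, 320.1 ± 103, 307 ± 82.1 and 349 ± 237 CPM in the same order. In CPM itself Rps6, Rpl4 and Rpl13 were among the 4 members with every VAT library below every LN library (1.7% of all genes), and 20 were without lean VAT replicate 1 (2.7% of all genes). Rpl7 and Rpl27 were named for this pattern after their values were seen.

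No paralog passed in edgeR, and DESeq2 and limma voom called Rpl39l in lean mice. Rps27l and Rpl36al were higher in VAT in both diets while their parents were lower, and Rpl22l1 was lower in both diets, as Rpl22 was. Rps27l, a target gene of p53, was at 80.3, 102, 101 and 44.4 CPM in HFD LN and at 123, 81.3, 171 and 78.1 CPM in HFD VAT (adjusted p = 0.598). Its parent Rps27 was at 1097, 1625, 1407 and 1265 CPM in HFD LN and at 622, 636, 1086 and 652 CPM in HFD VAT, with no overlap (adjusted p = 0.13). As a share of Rps27 counts, Rps27l was 6.08 ± 1.77% in HFD LN and 15.1 ± 3.51% in HFD VAT, without overlap. An exact two-sided permutation test gave p = 0.0286 (n = 4 against 4), the smallest it can give, and 0.229 after Benjamini-Hochberg adjustment over 16 such ratio tests. In lean mice the share was 9.09 ± 3.42% and 15.2 ± 3.97%, with overlap (exact permutation p = 0.0857, adjusted 0.343).

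Rpl36al, the paralog of Rpl36a, was at 11.2 ± 2.13 CPM in HFD LN and 17.2 ± 10.6 CPM in HFD VAT (adjusted p = 0.745). Rpl36a was at 127 ± 33.4 and 68.7 ± 21.7 CPM there (adjusted p = 0.143). In lean mice the share of Rpl36al over Rpl36a was 8.74 ± 2.06% in LN and 25.5 ± 9.01% in VAT, with no overlap (exact permutation p = 0.0286, adjusted 0.229, n = 4 each). On HFD it was 9.36 ± 3.74% and 27.7 ± 19%, with overlap (exact permutation p = 0.0857, n = 4 each). Rpl22l1 over Rpl22 and Rpl7l1 over Rpl7 overlapped between tissues in both diets. The shares are of counts and are not corrected for length, and a paralog close in sequence can share reads with its parent.

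Some paralogs and copies were counted in a few libraries. Rpl39l, known from testis, had the most variable level of the 90 members tested and was at 0.0905, 5.11, 3.56 and 10.4 CPM in lean VAT. It was at 0, 0.0539, 0 and 0 CPM in lean LN, at 1.43, 0, 0.154 and 0 in HFD LN and at 0.0436, 0.0683, 0 and 0 in HFD VAT. Only lean VAT replicates 2, 3 and 4 exceeded 1.43 CPM, and the lean difference did not pass (adjusted p = 0.105). Rps4l was at 43.2, 11.7, 4.34 and 24.4 CPM in lean VAT, and in the other groups it was at 0 in 3, 3 and 2 of 4 libraries (adjusted p = 0.934 in lean mice). Rpl7l1 was at 111 ± 52.7 and 135 ± 102 CPM on HFD (adjusted p = 0.958), and Rpl22l1 at 43.7 ± 9.29 and 38.5 ± 23.9 CPM (adjusted p = 0.943).

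Of the 7 copies tested, 6 were lower in HFD VAT and 1, Rps4l, was higher (2.53 CPM in LN and 3.04 CPM in VAT). Rps3a2, Rps3a3, Rpl6l, Rpl32l, Rpl37rt and Rps27rt were the lower ones, and Rpl32l, at 39.3 ± 4.81 and 19.8 ± 4.28 CPM, was the 1 whose groups did not overlap (adjusted p = 0.255). None of the 7 copies tested passed in either diet in edgeR, while DESeq2 called Rpl32l in both diets and Rps27rt on HFD. Counts of a copy and its parent cannot be told apart where the sequences are the same. The 209 hyphenated pseudogene rows tested had a median log2 fold change of -0.70 on HFD and -0.20 in lean mice. Rps19bp1, a regulator of SIRT1 rather than a ribosomal protein, was at 26 ± 20.8 and 27.7 ± 13.6 CPM on HFD (adjusted p = 0.985).

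**Figure D4:**
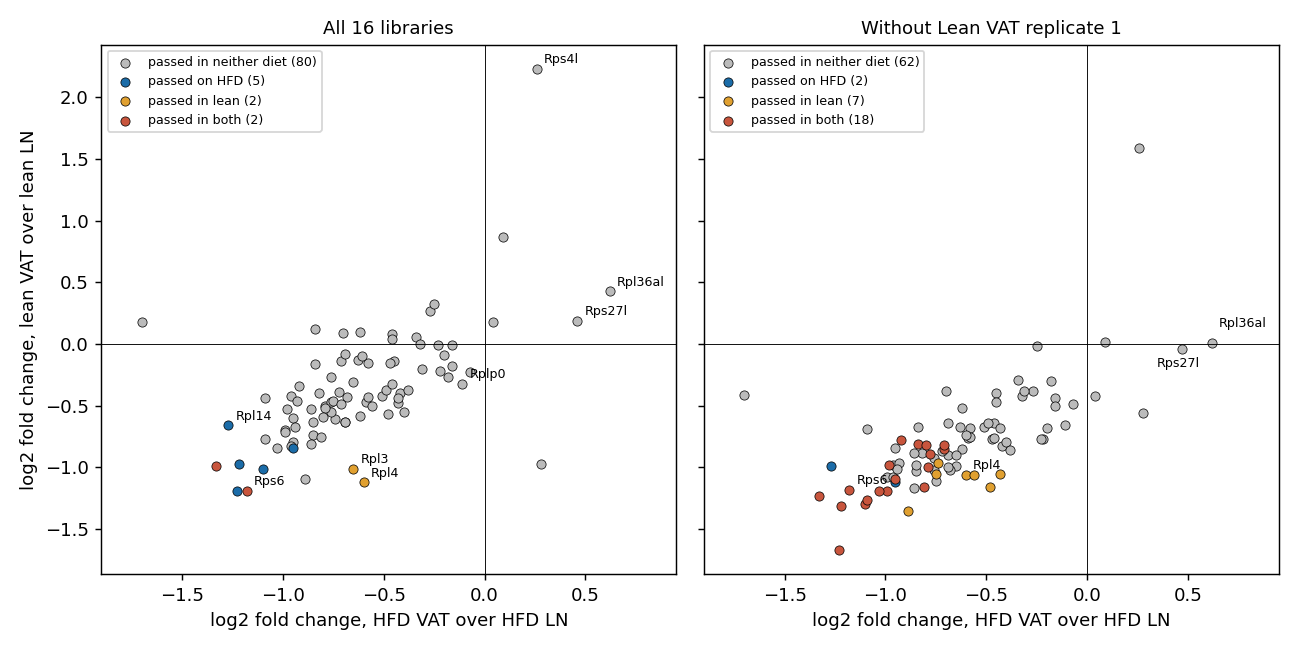
Log2 fold changes of 89 tested ribosomal protein genes between tissues on HFD (horizontal) and in lean mice (vertical), with all 16 libraries (left) and without lean VAT replicate 1 (right). Colours mark adjusted p of at most 0.05, with the number of genes in brackets, and Rpl39l is not drawn. On the left 2 genes passed in both diets and 80 in neither. On the right 18 passed in both, and the cloud lies lower on the vertical axis.

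Diet was then compared within each tissue. No member passed between HFD and lean VAT (0.0574% of all genes were called), between HFD and lean LN (0.0% of all genes), or for the difference between the 2 diet effects (0.0191% of all genes), in edgeR's test. At an unadjusted p under 0.05 there were 2, 1 and 1 members in these 3 comparisons, and DESeq2 called 2 (4.91% of all genes), 0 (1.51%) and 1 (4.05%). The 2 that DESeq2 called in VAT were Rpl4 and Rpl39l. Summed CPM was 23541 ± 5371 in HFD VAT and 24872 ± 11676 in lean VAT, with overlap, and a log2 ratio of means of -0.08 that became 0.31 without lean VAT replicate 1. In LN it was 38919 ± 5543 and 36507 ± 9327 CPM, a log2 ratio of 0.09.

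In VAT 61 of 90 members were lower on HFD (55.1% of all genes were), and the direction turned without lean VAT replicate 1, with 13 lower and 77 higher at a median log2 fold change of 0.30 (51.1% of all genes lower). With all libraries the number lower was 49 with RLE size factors and 23 in the limma voom fit with quality weights. The libraries did not overlap for 1 member, Rpl39l, lower on HFD (2.1% of all genes). Rpl4 was at 915 ± 217 CPM in HFD VAT and 635 ± 72.8 CPM in lean VAT, with overlap. Its log2 fold change was 0.53 with SE 0.171 (adjusted p = 0.428). In LN 78 of 90 members were higher on HFD (49.7% of all genes were lower), with a median log2 fold change of 0.09. All 90 overlapped (2.26% of all genes did not overlap). With 1 library left out the number higher ran from 53 (without lean LN replicate 3) to 85 (without lean LN replicate 2). Rps6 differed by 0.01 on the log2 scale between the diets in VAT (SE 0.173, adjusted p = 1.0). The design had limited reach: in simulated data with these libraries' spread, 0 of 14 members changed 2-fold between HFD and lean VAT were found, 5 of 10 changed 4-fold and 5 of 6 changed 8-fold. For tissue on HFD the numbers were 0 of 14, 5 of 10 and 5 of 6. That simulation changed fewer genes than the 714 called between tissues on HFD, so its adjusted threshold was stricter than in the data. There Rpl13 passed at 2.14-fold, so the simulated numbers are not the reach of the real tissue comparison.

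Promoter letters were set against the tissue differences as a description. On HFD the 35 core genes with a pyrimidine run at the start had a median log2 fold change of -0.70 (-1.70 to -0.16), and the 22 without had -0.57 (-1.09 to 0.04). In lean mice the medians were -0.47 and -0.40. Core genes with CCGGAAG had a median of -0.61 on HFD and those without -0.72. Of the genes printed above, Rps7 has no run and fell on HFD, Rps27l has a run and was higher in HFD VAT, and Rps6 and Rplp0 differ both in the run and in their values.

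Other genes of the translation apparatus, from lists named in the methods, differed between tissues to an extent that varied by list. Fau and Rack1, ribosomal proteins under other names, did not pass in either diet, and Fau was at 443 ± 98.5 CPM in HFD LN and 309 ± 54.1 CPM in HFD VAT (adjusted p = 0.587). Of 77 mitochondrial ribosomal protein genes tested, 0 passed on HFD and 1, Mrpl30, rose in lean VAT (2.27-fold, adjusted p = 0.015). Their median log2 fold changes were -0.02 and 0.08, and their summed CPM was 4531 ± 523 in HFD LN and 4501 ± 502 in HFD VAT. Of 59 ribosome assembly genes, 0 passed in either diet at medians of -0.40 and -0.38.

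Of 8 elongation factor genes, 1 fell and 1 rose in VAT in each diet. Their median log2 fold change was -0.53 on HFD (7 lower) and -0.52 in lean mice (5 lower). The medians of the members were -0.69 and -0.43. Eef1a1, which brings aminoacyl-tRNA to the ribosome and is itself a TOP messenger, fell from 2164 ± 209 to 1383 ± 264 CPM on HFD (1.57-fold, adjusted p = 0.0118) and from 2235 ± 278 to 1359.8 ± 124 CPM in lean mice (1.64-fold, adjusted p = 0.00703). Eef2, which moves the ribosome along the messenger, was at 912 ± 101 and 422 ± 89.8 CPM on HFD (adjusted p = 0.0576). Eif5a, a factor for stretches of proline, rose from 477 ± 41.7 to 982 ± 182 CPM on HFD (2.06-fold, adjusted p = 0.00166) and from 474 ± 26.7 to 828 ± 206 CPM in lean mice (1.75-fold, adjusted p = 0.014). Among 20 other TOP messengers Eef1a1 fell and Vim, which encodes the filament vimentin, rose in both diets, by 5.41-fold on HFD (adjusted p = 0.000935). The median of these 20 was -0.40 on HFD (17 lower) and -0.16 in lean mice (11 lower).

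Of 36 initiation factor genes, Eif2s2 rose on HFD (2.46-fold, adjusted p = 0.0135) and 0 passed in lean mice. Of 24 genes of mTORC1 and TOP control, Rps6kb2, a kinase of Rps6, rose on HFD from 52 ± 24.3 to 148 ± 68.2 CPM (2.84-fold, adjusted p = 0.033) and 0 passed in lean mice. Of 11 p53 target genes tested, Bbc3, which promotes cell death, fell from 133 ± 51.1 to 11.2 ± 4.18 CPM on HFD (11.9-fold, adjusted p = 0.000622) and from 111 ± 24 to 26.8 ± 17.2 CPM in lean mice (4.12-fold, adjusted p = 0.0293). Of 10 integrated stress response genes and 15 genes of ribosomal DNA transcription, 1 each fell on HFD, Trib3 and Taf1a, both at 0 in all 4 HFD VAT libraries. No gene of ribosome rescue and turnover (12 tested) passed in either diet.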

How the data were processed

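RNA of 16 T-cell libraries was measured as read counts per gene, deposited by the authors as 1 table. The submitters' processing notes name DESeq2, kallisto 0.42.4 and GRCh38, a human build, while the gene names are those of mouse, so the build behind the counts is not known and no coordinates come from the table. Counts were fitted as deposited with edgeR 4.0.16 (R 4.3.3): filterByExpr over 4 groups, TMM factors, a robust quasi-likelihood fit of all 16 libraries, and Benjamini-Hochberg adjustment over 15675 genes. SE is the absolute log2 fold change divided by the square root of F. DESeq2 1.42.0 and limma 3.58.1 served as alternatives, beside other scalings, filters and left-out libraries. Library totals with no scaling factors were added after seeing the data, as was the mitochondrial list. The fit was tested on simulated data. Members and lists were chosen with earlier results of these data known. Named were all called members, a panel of textbook genes, all copies and non-ribosomal members, the 3 highest and 3 lowest in coefficient of variation, and at most 2 genes per direction of each other list. Promoters are from RefSeq. Some genes that the counts include are not reported here by name. The columns of no sample numbered 0.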

Additional observations from a re-analysis of the deposited data

Results flagged for a closer look

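Within groups of 4 libraries, a value was singled out when its gap to the nearest other library took up more of the group's range than Dixon's 95% critical value, which chance does in about 1 of 20 groups. Of 168 groups of the named results 38 met it, and values below are that ratio. Over all 90 members tested it was met by 48 in lean VAT, each time with replicate 1 highest, by 19 in lean LN, 11 in HFD VAT and 4 in HFD LN.

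Lean VAT replicate 1 was the high library for the summed level of the members (0.926). Among 40S genes this held for Rps3 (0.969), Rps4x (0.942), Rps18 (0.838), Rps19 (0.943), Rps27 (0.879), Rps27a (0.928) and Rpsa (0.866). Among 60S genes it held for Rpl5 (0.921), Rpl10 (0.978), Rpl11 (0.869), Rpl13 (0.847), Rpl13a (0.902), Rpl17 (0.941), Rpl39 (0.851), Rplp1 (0.936) and Rplp2 (0.902). The copy Rps3a2 (0.867) and the non-ribosomal Rps19bp1 (0.892) did the same.

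Lean LN replicate 2 was the high library for the summed level (0.838), Rps6 (0.87), Rps18 (0.847), Rpl13 (0.926), Rpl38 (0.891), Rpl22l1 (0.871), Rpl39l (1.0), Rpl32l (0.896) and Rps27rt (0.843). HFD VAT replicate 3 was the high library for Rplp0 (0.909), Rplp2 (0.871), Rps27 (0.936), Rps27rt (0.918) and Rps3a3 (0.873). Rps4l was counted in HFD VAT replicate 4 alone of its group and in HFD LN replicate 2 alone of its group (1.0 each). Rpl39l was highest in HFD LN replicate 1 (0.892), and Rps3a3 was lowest in HFD LN replicate 4 (0.862).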

How the results depend on the processing

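On HFD, where 7 members were called between tissues, the number was 26 with DESeq2, 16 with only the groups compared, 12 with library totals and no scaling factors (13.3% of members, 4.76% of all genes), 4 with at least 5 CPM in 4 libraries (4.55% against 6.21%), 4 with no filter (4.3% against 1.3%), 3 with upper quartile normalisation (3.33% against 4.45%) and 24 without lean VAT replicate 1 and HFD VAT replicates 1 and 3 together. Leaving out 1 library gave 2 to 20, with 20 without lean VAT replicate 1 and 2 without HFD LN replicate 2, 3 or 4 or HFD VAT replicate 1 or 2. Those counts of 2 are 2.22% of members, below the 2.92% to 3.47% of all genes called in the same fits. It gave 3 (3.33%) without HFD LN replicate 1 (3.06% of all genes) or HFD VAT replicate 4 (3.8%). In lean mice, with 4 called, it was 17 with DESeq2, 7 with RLE size factors (7.78% against 2.85%), 41 with limma voom and 39 without those 3 libraries, and 3 to 25 when 1 library was left out (25 without lean VAT replicate 1). Between diets DESeq2 called 2 members in VAT and 1 for the difference of diet effects, against 0 in edgeR. The cause was not tested. Without lean VAT replicate 1, which is in neither HFD group, the HFD median log2 fold change of the members stayed at -0.69 while 20 were called. Adjusted p ranged over the alternatives from 0.00256 to 0.134 for Rpl13, 0.00155 to 0.109 for Rps19, 0.00111 to 0.112 for Rps7, 0.000762 to 0.0948 for Rps18, 0.000235 to 0.0743 for Rpl14 (all HFD) and 0.000218 to 0.0947 for Rpl3 (lean). Library totals moved the median of all genes to -0.32 on HFD. With the replicate number as a block, 2 members were called on HFD (2.22% against 3.22% of all genes) and 4 in lean mice (4.44% against 2.15%). Deviations of same-numbered libraries correlated at -0.0786 to 0.0393 and 5 of 16 libraries correlated best with their own number. These values cannot tell whether same-numbered libraries came from the same mice, which the labels do not say. At 40212388 counts or more per library, a count of 3 is at most 0.0803 CPM, which is below every library's value of the core genes named.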
